A study of Mus musculus with 2 samples.

Results

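Barcodes with transcripts of Il2ra (CD25) and, in most, of STAT5-induced genes were picked out of 2 single-cell libraries. The libraries came from lymph node and spleen, 1 each. The barcodes picked are labelled high CD25 regulatory T cells. A cell barcode was a member when it held 3 or more unique molecular identifiers (UMIs, each standing for 1 captured transcript) summed over Il2ra, Lrrc32, Socs1, Socs2 and Cish, with at least 1 of them from Il2ra. Members also had fewer than 5 of 15 effector genes detected (S100a4, S100a6, S100a11, Klrg1, Ccr2, Gzmb, Glrx, Lgals1, Rora, Maf, Icos, Itgae, Il1rl1, Fgl2 and Gna15), and fewer than 3 summed UMIs of the B cell genes Cd79a, Cd79b and Ms4a1. Only barcodes with 500 or more detected genes and at most 10% mitochondrial UMIs entered. The rule found 1226 members among 11363 such barcodes. In the lymph node library 392 of 4820 barcodes were members, a share of 8.13% (exact binomial 95% interval 7.38% to 8.94%). In the spleen library 834 of 6543 were members, a share of 12.7% (11.9% to 13.6%).

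The mice were healthy females of the genotype Myc fl/fl Foxp3 Cre/WT. Both copies of Myc are floxed in every cell of either library, and no library from mice without floxed Myc or without Cre was analysed here. Cre is driven by Foxp3, an X-linked gene, so that in a heterozygous female the regulatory T cells that use the Cre allele and those that use the wild-type allele develop side by side, and the submitters describe them as Myc-deficient and Myc-sufficient. Sorted CD4+ CD25+ cells, YFP+ and YFP- together, were run on 1 lane per tissue with the 10x 3' V2 kit; the sources used here do not give the animals' age and number, the floxed Myc exons, or which barcodes came from YFP+ cells. With 1 library per tissue there is no replicate, so no difference was tested. Every interval is a 95% interval and covers counting error only, and tissue and library cannot be told apart.

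The lymph node library held 5079 deposited barcodes with 13324306 UMIs and the spleen library 6840 with 16868549, and none of them had fewer than 500 UMIs. The filters left out 259 and 297 barcodes. The libraries shared 53 barcode sequences, of which 2 lymph node and 5 spleen barcodes were members.

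CD25 is the alpha chain of the interleukin-2 (IL-2) receptor, which regulatory T cells need because they make little IL-2 themselves. IL-2 bound to CD25 with the beta and common gamma chains activates the kinases JAK1 and JAK3 and then the transcription factor STAT5, which maintains Foxp3 and CD25. STAT5 also switches on Socs1, Socs2 and Cish, whose products dampen cytokine receptor signalling, while Lrrc32 encodes GARP, the protein that holds latent TGF-beta on the surface of regulatory T cells.

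Because members were chosen by their UMIs of the rule's genes, the values of those genes are given as a description only. Members held 1719 summed UMIs of the 5 genes in lymph node and 3850 in spleen. Il2ra, on chromosome 2 at 11642807 to 11693193 of GRCm38 on the plus strand, made up 41.8% of them in either library. Socs1 (chromosome 16, 10782240 to 10785536, minus strand) contributed 22.5% in lymph node and 21.0% in spleen, Cish (chromosome 9, 107296026 to 107302784, plus strand) 13.8% and 11.3%, Lrrc32 (chromosome 7, 98489283 to 98502181, plus strand) 12.7% and 11.6%, and Socs2 (chromosome 10, 95385362 to 95417180, minus strand) 9.13% and 14.2%.

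Most members carried a feedback gene beside Il2ra. A Socs1, Socs2 or Cish UMI was found in 87.8% of lymph node and 89.0% of spleen members, and only 22 and 47 members passed on Il2ra alone. Socs1 was detected in 59.2% and 56.2% of members, Cish in 44.1% and 39.3%, Lrrc32 in 38.5% and 36.9%, and Socs2 in 28.3% and 40.2%. Few members held everything: all 5 genes were detected in 7 lymph node and 28 spleen members, and the median summed score was 4 UMIs in both libraries. The median member held 2 Il2ra UMIs in either library. Just outside the threshold lay 291 lymph node and 398 spleen barcodes that had Il2ra with a summed score of 2, and 202 and 335 barcodes with a score of 3 or more but no Il2ra UMI. The effector-gene limit left out 51 and 106 barcodes that passed the score, and the B cell limit 9 and 11.

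Levels are given as UMIs of a gene per 1000000 UMIs summed over a group's barcodes (CPM), with exact Poisson intervals. Members were set against other barcodes that met the same effector and B cell limits and missed the score or the Il2ra requirement. Because the rule counts UMIs, it favours deep barcodes: the median depth was 2204.5 UMIs in lymph node and 2339 in spleen members, against 1852 and 1774.5 in the others. Comparison barcodes were therefore paired with members 1 to 1 on total UMIs, within 5%, which gave 389 lymph node and 833 spleen pairs with median depths of 2186 and 2337 UMIs on the comparison side. For the rule's own genes the matched groups differed by construction. Il2ra stood at 679 CPM over 77.3 CPM (lymph node) and 677 CPM over 67.0 CPM (spleen), and Socs2 at 150 against 22.0 CPM and 230 against 45.9 CPM.

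**Figure D1:**
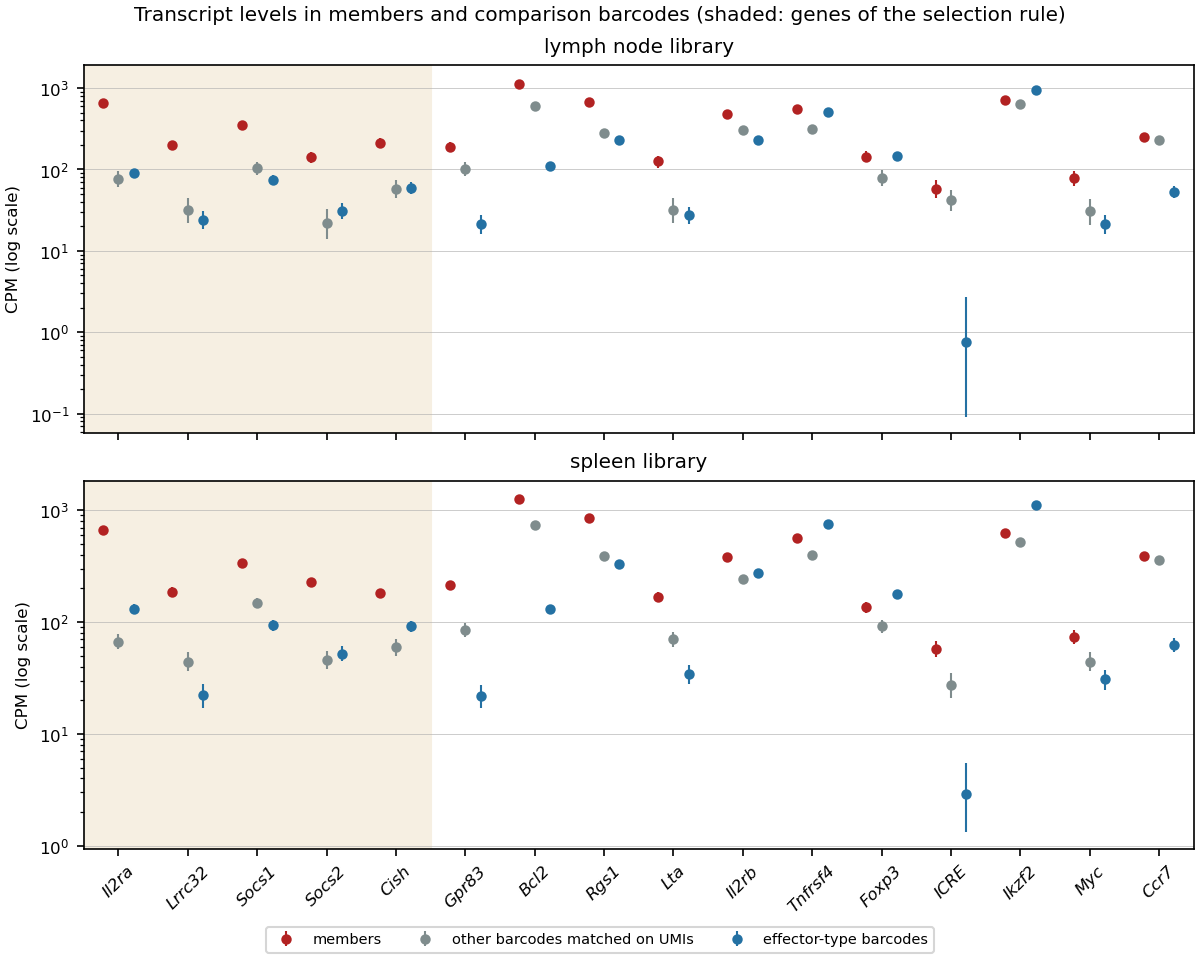
Level of 16 features in members (red), barcodes matched on UMIs (grey) and effector-type barcodes (blue) of each library, in CPM on a log axis; bars are exact Poisson 95% intervals and the shaded genes belong to the selection rule. Outside the rule, Bcl2, Rgs1, Lta, Il2rb and Gpr83 lie above the matched barcodes in both libraries, and ICRE is nearly missing from effector-type barcodes.

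The label was set beside markers that the rule did not use. Gpr83 was one of the members' listed markers, and the members were chosen with earlier results of these data known. Its level is therefore a description and not an independent check. Gpr83, a G-protein-coupled receptor gene used as a regulatory T cell marker (chromosome 9, 14860210 to 14870789, plus strand), stood at 200.2 CPM in lymph node members and 102 CPM in matched barcodes, and at 216 and 85.1 CPM in spleen, which is 1.96-fold (1.55 to 2.5) and 2.54-fold (2.16 to 3.01) higher. Foxp3, the lineage-defining transcription factor (chromosome X, 7573644 to 7595245, plus strand), stood at 151 CPM over 79.2 CPM (lymph node) and 137 CPM over 91.4 CPM (spleen), a ratio of 1.90 (1.45 to 2.51) and 1.5 (1.26 to 1.79). With the rule applied at 1200 UMIs per barcode the Foxp3 ratios were 1.04 (0.633 to 1.63) and 0.718 (0.451 to 1.09), so it was lower in spleen there, with an interval that spans 1. Ikzf2, which encodes Helios, was at 726 against 629 CPM and 636 against 521 CPM.

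Neither Foxp3 nor ICRE, a feature added to the gene table, was detected in 59.2% of lymph node and 63.0% of spleen members, so the name regulatory T cell rests on the sort and the marker levels and not on Foxp3 in each barcode. CD25 here is transcript, since protein per barcode is not in the counts. Detection of Foxp3 depended on depth. After each barcode was thinned to 1200 UMIs, a Foxp3 UMI was left in 14.7% of lymph node and 13.5% of spleen members, against 7.92% and 9.83% of matched barcodes and 4.55% and 2.88% of B cell barcodes (Cd79a, Cd79b and Ms4a1 sum of 3 or more). Unthinned, the member shares were 27.6% and 25.5% at median depths of 2204.5 and 2339 UMIs, and the B cell shares 14.5% and 10.4% at 3120 and 2338 UMIs. The lymph node B cell barcodes also held T cell transcripts, with Cd3d in 53.6% and Trac in 40% of them unthinned. They are therefore not a background free of T cell RNA, and how many also hold a T cell was not tested. Gpr83 differed more from the B cell barcodes, at 19.6% and 23.1% of thinned members (29.6% and 34.2% unthinned). Matched barcodes held it in 9.50% and 10.7%, and B cell barcodes in 3.64% and 3.85%. Thinned effector-type barcodes (5 or more of the 15 effector genes) held Gpr83 in only 2.06% and 2.13%. They held Foxp3 in 19.5% and 19.1%, so Gpr83 and Foxp3 did not go together there. Thinning left out 10 lymph node and 29 spleen members.

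Markers of other cells were compared by their lists. Csf1r, Itgam, S100a8 and S100a9 of myeloid cells and Ncr1 and Klrb1c of natural killer (NK) cells had 0 UMIs in the members of either library, which allows up to 3 UMIs. The whole myeloid list of 9 genes summed to 108 CPM in lymph node members and 192 CPM in matched barcodes, and to 146 and 140 CPM in spleen. The CD8 genes Cd8a and Cd8b1 summed to 45.8 and 33.4 CPM in lymph node, where members were higher, and to 35.4 and 62.4 CPM in spleen. The NK list summed to 82.0 CPM in members against 204 CPM in matched barcodes in lymph node, and to 107 against 199.7 CPM in spleen, mostly from Nkg7. The B cell list, which includes Cd74 and antigen-presentation genes, was at 777 against 930 CPM and 469 against 614 CPM. Cytokine genes of conventional T cells summed to 46.7 and 71.2 CPM in lymph node and spleen members, against 99.3 and 81.7 CPM in matched barcodes. A UMI of a CD8, NK or innate-like T cell gene was present in 9.18% and 9.83% of members and in 10.3% and 9.72% of matched barcodes. Leaving out every barcode with such a CD8, NK or innate-like UMI kept all counts of genes past 1.5-fold within 1.5 times. Those genes do not mark conventional CD4 T cells, so this step does not bear on them. The part that differing shares of conventional T cells have in the contrast was not tested.

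Across genes outside the rule, the members differed from depth-matched barcodes in few genes. Of 2560 genes with 100 or more UMIs over both groups in lymph node, 1.91% were higher in members by 1.5-fold or more and 0.938% were lower. In spleen the shares were 1.8% and 0.868% of 4724 genes. At any size, 50.3% and 47.5% of the genes were higher in members, against which the counts of gene lists are read. In both libraries at once 18 of 2556 genes were higher, 0.704% of those measured: Casp8, Bcl2, Rgs1, Tasp1, Foxp3, Tmem64, Glipr2, Ahcyl2, Ncoa7, Sh3bp5, Gpr83, Xbp1, Rel, Serpina3g, Myc, Il2rb, Nfkbiz and Lta. Nkg7, Ccl5 and Nrn1 (0.117%) were lower in both. For Foxp3 and Nkg7 in spleen the direction depended on the depth at which the rule was applied, as given with their values. For Nkg7 in lymph node it also depended on which barcodes were compared at that depth.

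**Figure D2:**
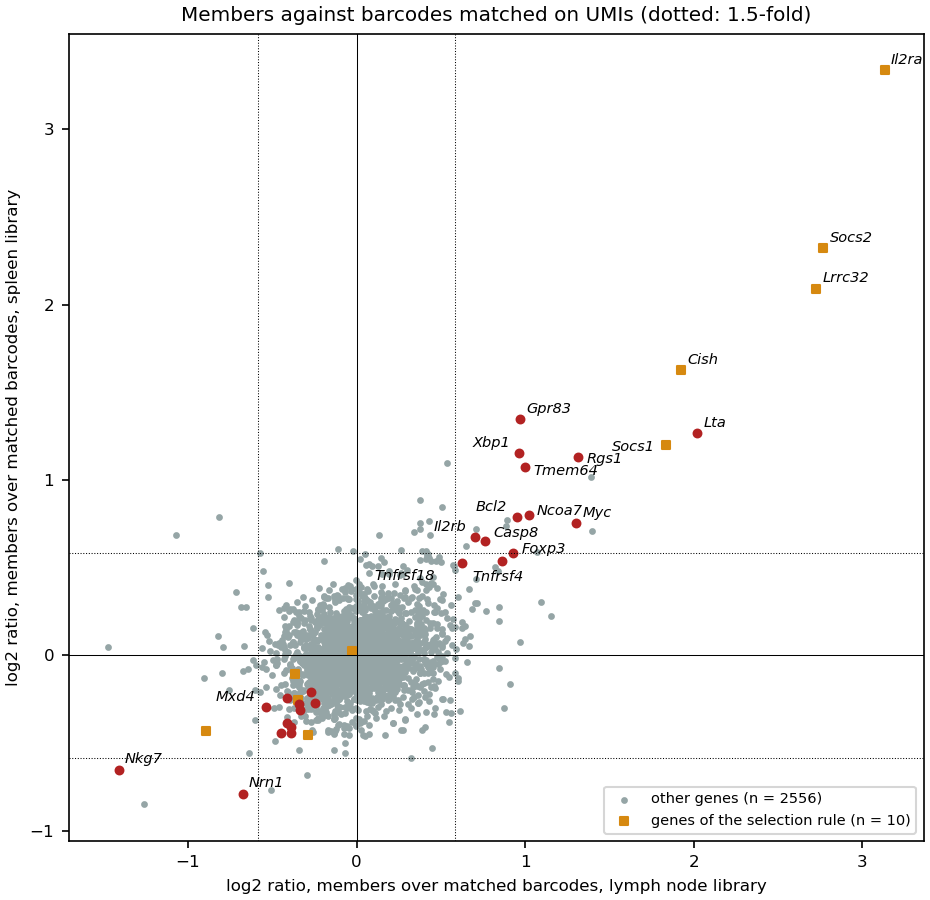
Log2 ratio of members over matched barcodes in the lymph node library (x axis) and the spleen library (y axis), for 2556 genes outside the rule and 10 genes of the rule (orange squares), with dotted lines at 1.5-fold and named genes in red. Away from the rule genes, Lta, Rgs1, Gpr83 and Bcl2 lie at the upper right and Nkg7 and Nrn1 at the lower left.

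Of the receptor and signalling genes, the beta chain was higher in members of both libraries. Il2rb, the IL-2 receptor beta chain (chromosome 15, 78479256 to 78495271, minus strand), was at 495 CPM in lymph node members and 304 CPM in matched barcodes, and at 386 and 242 CPM in spleen, 1.63-fold (1.42 to 1.88) and 1.60-fold (1.44 to 1.77) higher. The common gamma chain Il2rg did not follow it: its levels were 301 against 270 CPM and 254 against 267 CPM, with ratios of 1.12 (0.947 to 1.31) and 0.952 (0.850 to 1.07). Jak1, the kinase bound to the beta chain, had ratios of 0.969 and 1.02, and Stat5a 1.11 (0.687 to 1.81) and 0.989 (0.742 to 1.32). Il7r, the receptor chain for interleukin-7, went the other way at 166 CPM over 213 CPM (lymph node) and 135 CPM over 163 CPM (spleen), ratios of 0.779 (0.636 to 0.955) and 0.831 (0.714 to 0.966). Il4ra was at 74.4 against 55.4 CPM and 80.0 against 53.5 CPM. Over the list of IL-2 receptor, JAK and STAT genes, 6 of 9 measured genes were higher in lymph node and 4 of 11 in spleen, with 1 past 1.5-fold in each; its median log2 ratio was 0.07 and -0.07, beside 0.01 and -0.00 over all genes.

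STAT5 target genes that the rule did not use were also higher. The survival gene Bcl2 (chromosome 1, 106538178 to 106714274, minus strand) reached 1171 CPM in lymph node members and 605 CPM in matched barcodes, and 1272 and 735 CPM in spleen, ratios of 1.93 (1.76 to 2.13) and 1.73 (1.63 to 1.84). Lta, which encodes lymphotoxin alpha (chromosome 17, 35203165 to 35205351, minus strand), was at 128 against 31.5 CPM and 170 against 70.4 CPM, 4.06-fold (2.75 to 6.13) and 2.41-fold (2.01 to 2.91) higher. The kinase gene Pim1 was at 355 against 273 CPM, a ratio of 1.30 (1.11 to 1.52), and at 344 against 186 CPM, a ratio of 1.85 (1.64 to 2.08). Smaller ratios were found for Mcl1, another survival gene of the Bcl2 family (1.37 in lymph node and 1.22 in spleen), and for the D cyclin gene Ccnd2 (1.28 and 1.22). Of 13 listed targets, all 7 measured in lymph node and 7 of 8 in spleen were higher, 2 and 3 of them by 1.5-fold or more; the list's median log2 ratio was 0.46 and 0.29. The exception in spleen was Bcl2l1 at a ratio of 0.965.

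STAT5 binds a palindrome read as TTCNNNGAA, and the RefSeq promoter windows of GRCm38.p6 (250 bases before to 50 after a start) were searched for it; being a palindrome, it reads alike on both strands. Of the genes searched, Cish and Lta each had 2 matches, which 0.457% of all 32851 windows hold, while 8.30% hold at least 1. Foxp3 had 1 match in 1 of 2 listed windows, and Il2ra, Socs1, Gpr83, Bcl2 and Pim1 had none. Lrrc32, Socs2, Rgs1, Il2rb and Myc were not searched. The Cish and Lta stretches are shown because their matches can be read in place, with capitals marking each match and no overlap between them. The Cish stretch, chr9:107296409-107296683 on the plus strand, runs from 250 bases before to 25 after the start, with matches beginning at bases 1 and 12 after it. The Lta stretch, chr17:35205352-35205601 on the minus strand, ends at the base before the start, with matches beginning 152 and 16 bases before it. A match is a run of letters and not a measured binding site.
Cish: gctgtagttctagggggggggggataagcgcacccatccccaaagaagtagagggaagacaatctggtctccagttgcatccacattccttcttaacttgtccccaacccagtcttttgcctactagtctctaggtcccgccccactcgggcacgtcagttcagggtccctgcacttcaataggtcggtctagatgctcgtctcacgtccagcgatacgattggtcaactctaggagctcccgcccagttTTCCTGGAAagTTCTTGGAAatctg
Lta: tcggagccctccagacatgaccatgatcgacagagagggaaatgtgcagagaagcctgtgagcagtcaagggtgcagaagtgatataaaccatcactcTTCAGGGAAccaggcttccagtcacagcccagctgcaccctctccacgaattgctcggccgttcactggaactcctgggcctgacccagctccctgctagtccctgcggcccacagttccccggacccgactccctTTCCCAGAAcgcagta

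Regulatory T cell identity genes were higher as a list, mostly by less than 1.5-fold. All 9 were measured in both libraries, with 8 higher in lymph node and 9 in spleen and a median log2 ratio of 0.50 in each; 4 and 1 passed 1.5-fold. The costimulatory receptor gene Tnfrsf4 (OX40) was at 576 CPM over 317 CPM (lymph node), a ratio of 1.82 (1.59 to 2.08) and 576 CPM over 396 CPM (spleen), a ratio of 1.45 (1.34 to 1.58). Tnfrsf18, which encodes GITR, was at 494 against 320 CPM and 490 against 340 CPM, ratios of 1.54 (1.34 to 1.78) and 1.44 (1.32 to 1.58). The inhibitory receptor gene Ctla4 was at 191 against 135 CPM and 195 against 134 CPM. Ikzf4 was at 74.4 against 42.0 CPM and 81.3 against 57.3 CPM, and the semaphorin receptor gene Nrp1 was the exception in lymph node at a ratio of 0.778. Genes for TGF-beta activation and SMAD signalling could be measured for 2 of 12 in lymph node and 7 of 12 in spleen, of which 2 and 5 were higher; Tgfb1 had a ratio of 1.21 in both libraries.

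Rgs1, which limits signalling of chemoattractant receptors (chromosome 1, 144242296 to 144249242, minus strand), was among the genes named by size of difference, at 694 CPM over 279 CPM (lymph node) and 855 CPM over 390 CPM (spleen). Its ratios were 2.49 (2.17 to 2.86) and 2.19 (2.03 to 2.37). Genes of NF-kB and its feedback regulators were higher as a list: 9 of 9 measured in lymph node and 12 of 13 in spleen, 2 past 1.5-fold in each, median log2 ratio 0.36 and 0.33. The subunit gene Rel was at 84.9 against 45.8 CPM and 88.0 against 52.7 CPM, and Nfkbiz, an atypical inhibitor, at 98.2 against 37.2 CPM and 72.4 against 44.2 CPM. Of TNF receptor and ligand genes, 6 of 7 were higher in lymph node (median log2 ratio 0.40) and 4 of 9 in spleen (-0.07). Other genes named by size were Xbp1, a transcription factor of the secretory pathway, at 113 against 58.2 CPM and 125 against 56.5 CPM, Casp8, a caspase of death receptor signalling, at 232 against 136 CPM and 235 against 150 CPM, Ncoa7 at 126 against 62.0 CPM and 128 against 73.3 CPM, and Tmem64 at 93.4 against 46.8 CPM and 80.0 against 37.9 CPM.

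**Figure D3:**
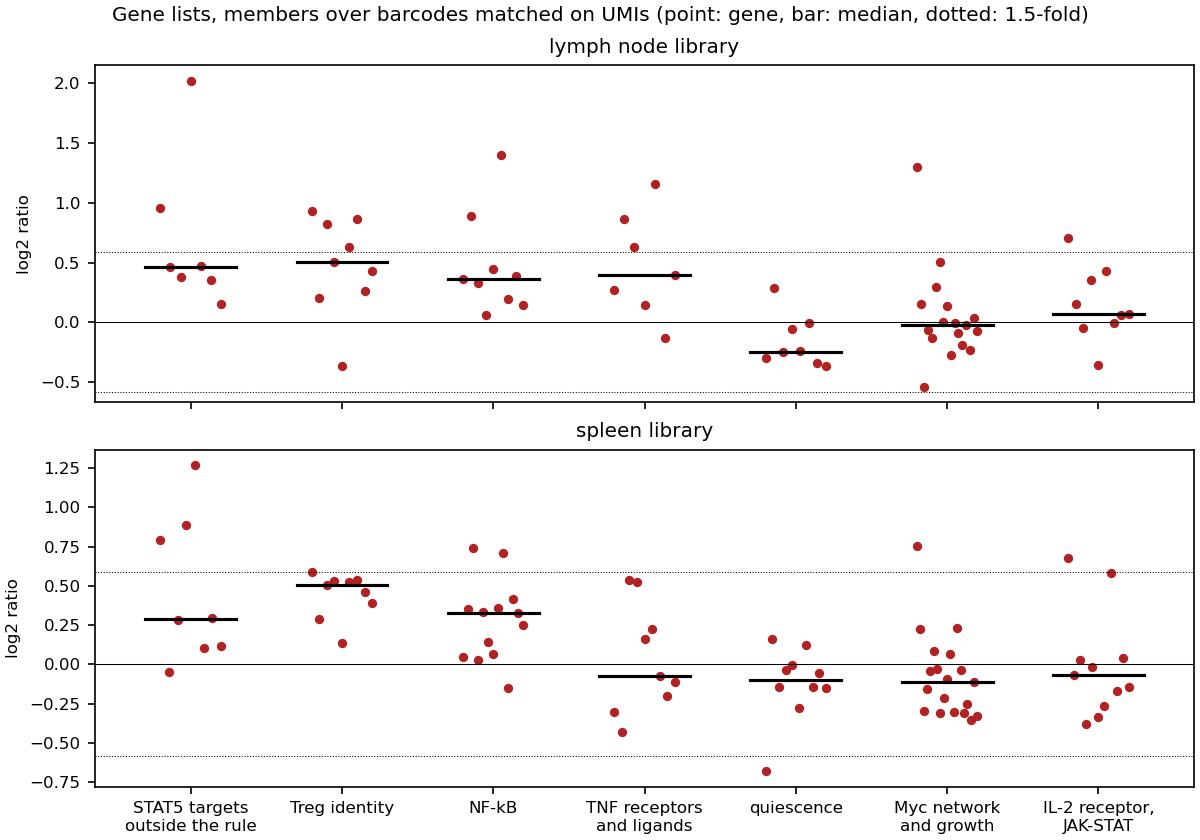
Log2 ratio of members over matched barcodes for each measured gene of 7 lists (points) with the list's median (black bar), by library; dotted lines mark 1.5-fold. The medians of STAT5 targets outside the rule, regulatory T cell identity and NF-kB genes lie at 0.29 to 0.50 in both libraries, and those of quiescence genes at -0.24 and -0.10.

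Resting-state and growth genes showed small differences. Among quiescence factors, 7 of 8 measured genes were lower in lymph node and 8 of 10 in spleen, 0 and 1 of them by 1.5-fold or more, with medians of -0.24 and -0.10. Tcf7, a transcription factor of naive and memory T cells, was at 111 CPM over 136 CPM (lymph node) and 91.4 CPM over 147 CPM (spleen), ratios of 0.816 (0.633 to 1.05) and 0.623 (0.523 to 0.740). The list of homing genes had a median log2 ratio of 0.06 in lymph node and -0.06 in spleen. Ccr7 was at 246 against 229 CPM and 391 against 357 CPM, ratios of 1.07 (0.897 to 1.29) and 1.09 (0.996 to 1.20), whereas Klf2, the factor that drives several homing genes, was at 1148 against 948 CPM and 1214 against 852 CPM. Cytosolic ribosomal protein genes were slightly lower, 63 of 79 and 57 of 79, at medians of -0.03 and -0.02. Glycolysis genes were lower in 6 of 9 and 8 of 12. The 3 cycling genes measured in lymph node were lower in members, and 6 of 8 in spleen were higher at a median of 0.06.

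Myc (chromosome 15, 61985391 to 61990374, plus strand) was higher in members, while its network and growth list was not. It stood at 75.3 CPM in lymph node members and 30.5 CPM in matched barcodes, and at 74.5 and 44.2 CPM in spleen, with ratios of 2.47 (1.62 to 3.84) and 1.68 (1.32 to 2.17). Of the Myc network and growth list, 7 of 17 measured genes were higher in lymph node and 5 of 19 in spleen, at medians of -0.02 and -0.11. The nucleolar gene Npm1 was at 1036 against 1136 CPM and 1284 against 1323 CPM. Mxd4, a Myc antagonist, was at 129 against 187 CPM and 153 against 188 CPM. Since the floxed exons are not known here and the counts are not split by exon, a Myc UMI does not show whether a cell's Myc was deleted.

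The genes that were lower in members included cytotoxic and costimulatory ones. Nkg7, a cytotoxic granule gene, was at 61.0 CPM in lymph node members and 162 CPM in matched barcodes, 2.66-fold (1.98 to 3.60) lower, and at 99.8 and 157 CPM in spleen, 1.57-fold (1.33 to 1.86) lower. When barcodes were thinned to 1200 UMIs before the rule and then matched, Nkg7 had the opposite direction. Its log2 ratio was then 0.36 and 1.13. Lymph node members held 9 Nkg7 UMIs at that depth. Against all other barcodes at that depth the ratios were 0.546 (0.248 to 1.05) and 1.41 (1.05 to 1.85), so only spleen turned there. Nrn1, which encodes neuritin, was at 49.6 against 79.2 CPM and 46.3 against 80.1 CPM, and the chemokine gene Ccl5 had ratios of 0.418 and 0.555. Cd28, the main costimulatory receptor of T cells, was at 333 against 435 CPM and 307 against 407 CPM, 1.31-fold (1.14 to 1.51) and 1.33-fold (1.20 to 1.46) lower. Trac, Cd52, Emb, Klf13 and Cd74 were also lower, with ratios between 0.733 and 0.824 in both libraries.

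The contrast was repeated with only those members and other barcodes that held a Foxp3 or ICRE UMI. How many of them are regulatory T cells was not tested. A single UMI does not show the cell type. B cell barcodes, which in lymph node also held T cell transcripts, had a Foxp3 UMI in 14.5% and 10.4%. The shares were 15.9% and 18.2% of matched barcodes and 27.6% and 25.5% of members. The repeated contrast paired 157 lymph node and 307 spleen members. The share of genes higher by 1.5-fold or more was 1.04% of 1054 in lymph node and 1.69% of 2370 in spleen, and the share lower 1.71% and 1.52%; at any size 46.5% and 47.6% were higher. In both libraries 3 genes (0.285%) were higher by that fold. Rgs1 remained high at 652 CPM over 343 CPM (lymph node) and 880 CPM over 421 CPM (spleen), ratios of 1.90 (1.56 to 2.33) and 2.09 (1.86 to 2.36). Bcl2 was at 1136 against 657 CPM and 1124 against 740 CPM, ratios of 1.73 (1.49 to 2.0) and 1.52 (1.38 to 1.67).

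Other genes also differed between the Foxp3- or ICRE-detected groups. Gpr83 had ratios of 1.58 (1.16 to 2.15) and 1.95 (1.54 to 2.48), Il2rb 1.44 (1.18 to 1.75) and 1.49 (1.28 to 1.74), and Pim1 1.38 (1.09 to 1.75) and 2.01 (1.69 to 2.40). Myc, with 39 against 15 UMIs in lymph node and 80 against 40 in spleen, had ratios of 2.60 (1.40 to 5.07) and 2.0 (1.35 to 3.0). Of the regulatory T cell identity genes, 4 of 7 measured in lymph node were higher, at a median of 0.05, and 8 of 9 in spleen, at 0.18, beside 0.50 in either library over all members; Ikzf2 had ratios of 0.928 and 1.01, and the level of Foxp3 itself is set by the choice of cells. Lower in members were Dusp2, a phosphatase gene, with ratios of 0.651 (0.526 to 0.802) and 0.755 (0.660 to 0.862), Cd28 at 0.694 and 0.785, and the glucocorticoid-induced gene Tsc22d3 at 0.656 and 0.850.

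The score behind the rule was graded, and so were several genes outside it. Among all barcodes that met the effector and B cell limits, Lta climbed from 29.3 CPM at a score of 0 to 61.3 CPM at 2, 100 CPM at 3 and 173 CPM at 6 or more in lymph node, and from 45.5 to 116, 117 and 254 CPM in spleen. Myc was at 19.3, 48.9, 52.8 and 141 CPM at the same scores in lymph node, and at 18.3, 46.4, 49.4 and 104 CPM in spleen. For Myc in both libraries, and for Lta in spleen, the values just inside the threshold of 3 lay near those just outside it.

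Barcodes with a score of 3 or more but no Il2ra UMI also had high Rgs1. Its level there was 652 CPM in lymph node and 1061 CPM in spleen, beside 636 and 658 CPM in members with a score of 3. In the same barcodes Bcl2 was at 1009 and 1440 CPM, beside 1164 and 1325 CPM in those members. Lta was at 67.4 and 168 CPM, beside 100 and 117 CPM. Myc was at 56.5 and 62.1 CPM, beside 52.8 and 49.4 CPM. Bcl2 did not order by score within members, at 1164 CPM for a score of 3 and 1294 CPM for 6 or more in lymph node, and 1325 and 1238 CPM in spleen. Depth moved with the score: members with a score of 3 had a median of 2009 and 2016 UMIs, and those with 6 or more 2613 and 2949.5 UMIs.

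**Figure D4:**
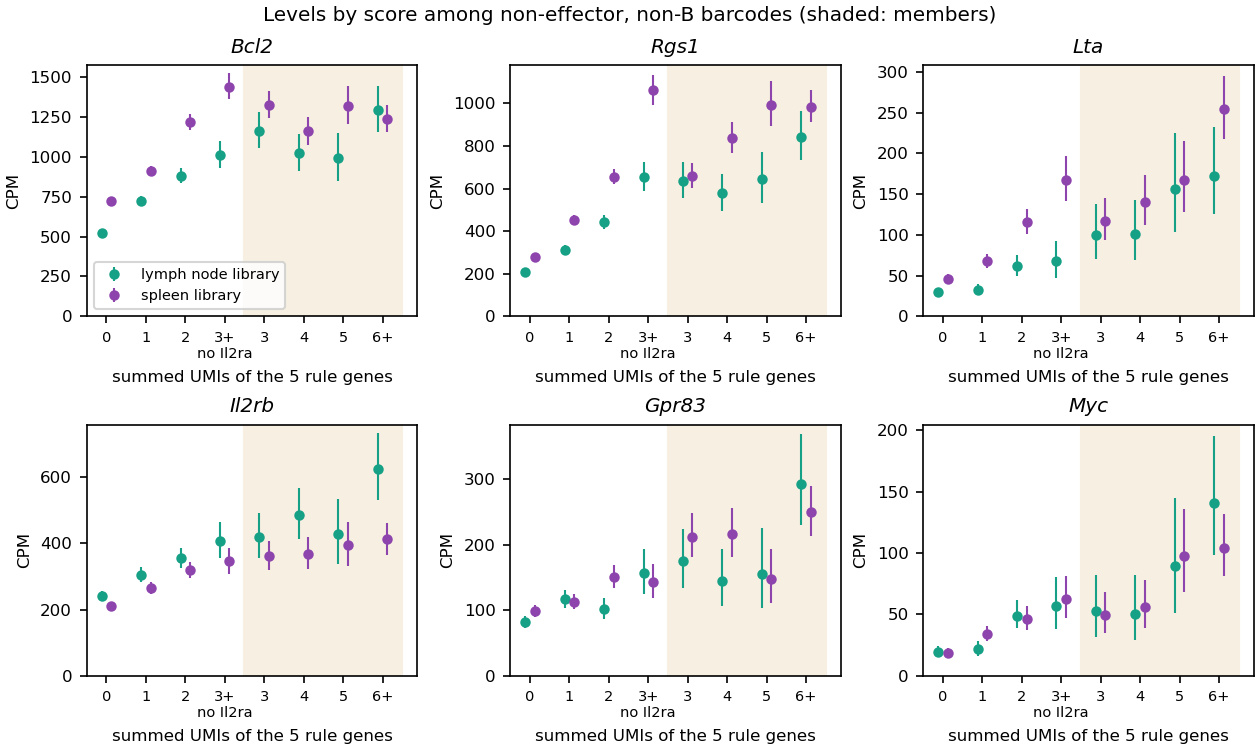
Level in CPM of 6 genes against the summed UMIs of the 5 rule genes, in barcodes that met the effector and B cell limits, for the lymph node (green) and spleen (purple) library; bars are exact Poisson 95% intervals and the shaded bins are members. Lta and Myc are lowest at a score of 0 and highest at 6 or more, while Bcl2 has no order by score within the members.

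The table of genes holds 3 added features, EYFP, CRE and ICRE. EYFP and CRE had 0 UMIs in members, whereas ICRE was counted 64 times in lymph node members and 139 times in spleen members. What ICRE stands for is not stated with it; it is read as a transcript of the Cre-bearing Foxp3 allele, which is an assumption. ICRE made up 28.7% (64 of 223, 22.9% to 35.1%) of ICRE and Foxp3 UMIs in lymph node members and 29.9% (139 of 465, 25.8% to 34.3%) in spleen members. Effector-type barcodes (5 or more of the 15 effector genes) held 0.510% (2 of 392) and 1.59% (9 of 567), while the other barcodes held 29.5% and 35.3%. These groups differ in depth, with medians of 3742 and 3328 UMIs in effector-type and 1852 and 1774.5 in other barcodes. B cell barcodes held 24.2% (8 of 33) and 15% (3 of 20), with the pair at 66.7 and 61.0 CPM in sum. Those of lymph node also held T cell transcripts, so they need not lack Foxp3 or ICRE.

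That share differed more between depths than between members and other barcodes. In the lowest tertile of the members' UMIs (up to 1764 in lymph node and 1825 in spleen), ICRE made up 76.0% (61.8% to 86.9%) and 77.3% (67.1% to 85.5%) of the pair in members, against 63.8% and 65.4% in other barcodes of that depth. The middle tertile gave 26.2% and 34.4% in members against 20.1% and 25.3%, and the highest 8.33% and 10.8% against 6.84% and 7.49%. Other barcodes of the highest tertile, with medians of 3589.5 and 3844.5 UMIs, are nearest in depth to the effector-type barcodes. The shares to set beside 0.510% and 1.59% are therefore 6.84% and 7.49%. From the lowest to the highest tertile, the members' ICRE UMIs went from 38 to 9 in lymph node and from 68 to 27 in spleen, while their Foxp3 UMIs went from 12 to 99 and from 20 to 222. Counted together, Foxp3 and ICRE UMIs were at 202 CPM (176 to 230) and 194 CPM (176 to 212) in members, against 121 and 119 CPM in matched barcodes.

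Levels of several genes named above also differed between depths, and the difference between members and other barcodes was compared within each tertile. Bcl2 in members went from 2071 CPM in the lowest to 697 CPM in the highest tertile of lymph node and from 2201 to 819 CPM in spleen, but the ratio to other barcodes stayed at 1.93, 2.08 and 1.76 in lymph node and 1.63, 1.62 and 1.66 in spleen. Rgs1 had ratios of 2.81, 2.20 and 2.29, and 2.30, 1.76 and 2.17. Lta had 3.10, 4.12 and 3.61, and 2.71, 2.77 and 2.26. Gpr83 had 2.10, 2.13 and 2.10, and 2.02, 2.33 and 1.99. These 4 genes were thus higher in members at every depth in both libraries.

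Foxp3 and Nkg7 ratios differed between depths. Foxp3 had ratios of 1.09, 1.26 and 1.55 from the lowest to the highest tertile in lymph node and 0.98, 1.23 and 1.71 in spleen. Most Myc UMIs came from deep barcodes: those in members numbered 1, 21 and 64 in lymph node, with 5.12, 71.9 and 103 CPM against 12.6, 27.7 and 37.2 CPM in others, and 11, 46 and 120 in spleen, with 26.5, 70.0 and 90.3 CPM against 14.0, 41.2 and 41.6 CPM. The lowest lymph node tertile, with a single Myc UMI, gave a ratio of 0.406 (0.00996 to 2.44), while the middle and highest gave 2.59 and 2.78 and the spleen tertiles 1.89, 1.70 and 2.17. Nkg7 was lower in the highest tertile, at 0.342 and 0.604, and near 1 in the middle tertile, at 1.07 and 0.937. In the lowest tertile its ratios were 0.812 (0.343 to 1.65) and 0.997 (0.682 to 1.42). When the rule itself was applied at 1200 UMIs per barcode, 155 lymph node and 300 spleen barcodes passed, and their ratios to other barcodes at that depth were 2.45 and 1.74 for Bcl2, 3.11 and 2.52 for Rgs1, 3.79 and 3.02 for Lta, and 2.37 and 2.24 for Gpr83. Myc, with 10 and 20 member UMIs left, had ratios of 2.09 (0.980 to 3.98) and 1.87 (1.12 to 2.97). At that depth Foxp3 had ratios of 1.04 and 0.718 and Nkg7 of 0.546 and 1.41, so the spleen direction of both turned.

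**Figure D5:**
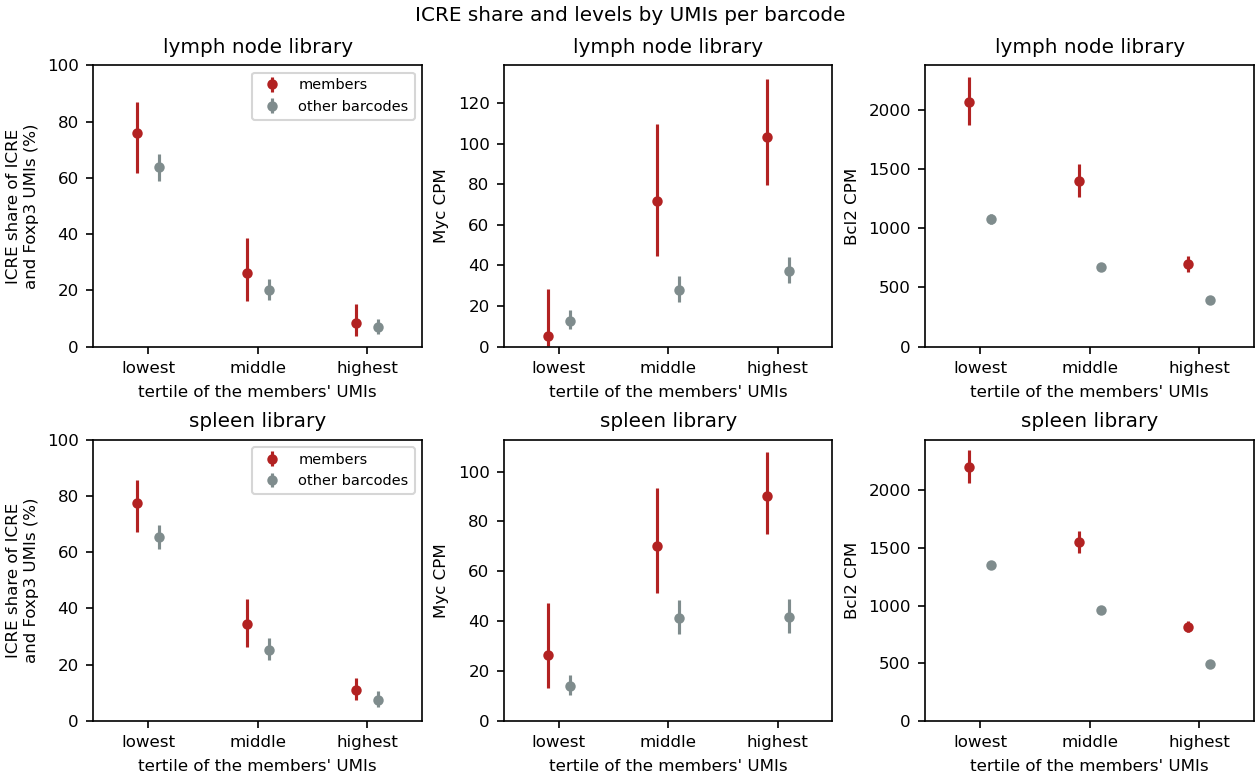
ICRE share of ICRE and Foxp3 UMIs (left, percent) and levels of Myc and Bcl2 (middle and right, CPM) in members (red) and other barcodes (grey), by tertile of the members' UMIs; bars are exact binomial or Poisson 95% intervals. The ICRE share falls from 76.0% to 8.33% in lymph node members and from 77.3% to 10.8% in spleen members, and Bcl2 stays above the other barcodes in every tertile.

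The study's design sets Cre-allele against wild-type-allele regulatory T cells of the same mice. Among members, barcodes with an ICRE UMI were compared with barcodes with Foxp3 but no ICRE. These groups do not assign an allele to a cell. An ICRE UMI was also present in 7.27% of 110 lymph node B cell barcodes, and the 106 spleen ones held 3 ICRE UMIs. The lymph node ones were not free of T cell transcripts, with Cd3d in 53.6% of them. A cell without an ICRE UMI may still express ICRE. ICRE was detected in 55 lymph node and 110 spleen members (14.0% and 13.2%), Foxp3 without ICRE in 105 and 199, and neither in 232 and 525. The ICRE barcodes were shallower, with medians of 1706 and 1824 UMIs against 3159 and 3438. Of 551 and 1210 genes measured, 13.1% and 11.9% were higher in ICRE-detected members by 1.5-fold or more, and 9.07% and 4.96% were lower. With 34 lymph node and 66 spleen pairs matched on UMIs these shares were 5.21% and 4.38% higher, and 5.21% and 1.61% lower. At any size, 43.9% and 33.1% of genes were lower without matching, and 65.1% and 45.9% with it.

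Ribosomal protein genes were lower in ICRE-detected members with and without matching: 76 of 79 in either library at a median log2 ratio of -0.42, and 74 and 78 of 79 at -0.26 once matched. Rpl22l1, a ribosomal protein paralogue, stood at 609 CPM over 1742 CPM (lymph node) and 828 CPM over 1827 CPM (spleen), with ratios of 0.350 (0.267 to 0.451) and 0.454 (0.390 to 0.526), and of 0.608 and 0.604 after matching. Npm1 was at 517 against 1365 CPM and 759 against 1562 CPM, with matched ratios of 0.540 and 0.677. Myc had 2 UMIs in ICRE-detected lymph node members against 38 in the Foxp3-only ones, and 10 against 73 in spleen; matched, it had 1 against 11 and 7 against 19. Klf2 was higher at 2253 against 657 CPM and 1925 against 913 CPM, ratios of 3.43 (2.86 to 4.11) and 2.11 (1.87 to 2.37), and 2.57 and 1.41 after matching. Il2ra, a gene of the rule, was at 1034 against 509 CPM and 873 against 536 CPM, but its ratio was 1.02 and 0.925 between matched members.

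Members with a Socs1, Socs2 or Cish UMI, 344 in lymph node and 742 in spleen, were set beside the 48 and 92 members with none. Members with none passed on Il2ra and Lrrc32 UMIs alone, so these sets differ in Il2ra by construction. Between members matched on UMIs, Il2ra had ratios of 0.676 in lymph node and 0.600 in spleen. At median depths of 2313 and 2342.5 against 1848 and 2295.5 UMIs, 9.65% of 1388 and 7.11% of 2868 genes were higher by 1.5-fold or more and 3.53% and 3.77% lower, and 8 genes (0.576%) were higher in both libraries. Coro1b, a coronin of the actin skeleton, had 99 against 3 UMIs in lymph node and 227 against 15 in spleen, ratios of 3.65 (1.21 to 18.0) and 1.80 (1.07 to 3.27). Between matched members its ratios were 3.51 (0.928 to 19.6), an interval that spans 1, and 2.17 (1.15 to 4.28). Id2, an inhibitor of E-protein transcription factors, was at 144 against 63.6 CPM and 112 against 66.6 CPM; between members matched on UMIs its ratio was 2.60 (1.05 to 7.32) in lymph node and 0.955 (0.458 to 1.99) in spleen.

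Of the genes that were higher in members than in other barcodes, Bcl2 and Il2rb had ratios near 1 between these sets of members before matching. Bcl2 was at 1124 CPM in members with a feedback gene and 1127 CPM in those without in lymph node, and at 1270 and 1160 CPM in spleen, ratios of 0.997 (0.828 to 1.21) and 1.09 (0.970 to 1.24). Il2rb had ratios of 1.03 (0.775 to 1.40) and 1.02 (0.824 to 1.27), and between matched members 1.33 (0.915 to 1.93) and 0.764 (0.558 to 1.04). Rgs1 was at 680 against 554 CPM and 876 against 596 CPM, ratios of 1.23 (0.943 to 1.62) and 1.47 (1.25 to 1.75). Cd28 was lower in members with a feedback gene, at 309 against 463 CPM and 290 against 431 CPM. Between matched members its ratio was 0.826 (0.539 to 1.26) in lymph node and 0.543 (0.391 to 0.749) in spleen. The histone gene Hist1h2ap had 157 against 0 UMIs and 153 against 2, but 58.6% and 52.3% of all its UMIs in members came from 1 barcode in each library.

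Against the 555 lymph node and 731 spleen effector-type barcodes, members had more transcripts of Bcl2, Gpr83 and Ccr7. With the 15 effector genes and the 5 score genes set aside, 4.75% of 4319 genes in lymph node and 5.23% of 5448 in spleen were higher in members by 1.5-fold or more, and 15.6% and 18.5% lower; at any size 37.4% and 32.9% were higher and 62.6% and 67.1% lower, with a median log2 ratio over all genes of -0.12 and -0.17. Bcl2 was at 1124 CPM over 111 CPM (lymph node) and 1258 CPM over 130 CPM (spleen), ratios of 10.2 (8.93 to 11.6) and 9.66 (8.71 to 10.7). Gpr83 was at 190 against 21.2 CPM and 214 against 21.8 CPM, and the lymph node homing receptor gene Ccr7 at 251 against 52.9 CPM and 388 against 62.2 CPM. Effector-type barcodes were deeper, with medians of 3742 and 3328 UMIs; between 282 and 577 pairs matched on UMIs, 3.33% and 3.88% of genes were higher and 14.2% and 18.1% lower by that fold, and the ratios were 6.16 and 7.96 for Bcl2, 5.32 and 7.92 for Gpr83, and 4.39 and 7.09 for Ccr7. The homing list was higher in members in 5 of 7 and 6 of 7 genes, at medians of 0.60 and 0.77, and matched on UMIs in 4 of 7 and 6 of 7, at 0.12 and 0.55.

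Foxp3 itself had ratios of 0.976 and 0.759 in members against effector-type barcodes, and of 0.761 (0.608 to 0.950) and 0.729 (0.627 to 0.846) between matched pairs. Ikzf2 was at 714 against 945 CPM and 629 against 1115 CPM, ratios of 0.755 (0.696 to 0.818) and 0.564 (0.531 to 0.600), and of 0.555 and 0.493 between matched pairs. Cycling genes were lower in members in 15 of 15 in both libraries, at medians of -2.26 and -2.25; between pairs matched on UMIs, 5 of 5 measured were lower at -0.57 in lymph node and 8 of 10 at -0.66 in spleen, where 68% and 71.2% of all genes were lower. The galectin gene Lgals3 was at 2.71 against 150 CPM and 4.58 against 211 CPM, and rested on 3 and 11 UMIs in members; its ratio was 0.0180 (0.00370 to 0.0531) and 0.0217 (0.0108 to 0.0390). Ribosomal protein genes were higher in 73 and 77 of 79, at medians of 0.31 and 0.41, and quiescence factors in 9 of 9 and 9 of 10, at 0.80 and 0.76. Matched on UMIs, ribosomal protein genes were higher in 79 of 79 in both libraries, at 0.41 and 0.49, and quiescence factors in 5 of 8 and 8 of 10, at 0.65 and 0.52.

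Members of the lymph node library were compared with those of the spleen library. Of 3867 genes, 1.94% were higher in lymph node by 1.5-fold or more and 1.97% were higher in spleen; 52.3% were higher in lymph node at any size. Of the genes of the rule, given as a description, Il2ra was at 650 and 671 CPM, Lrrc32 at 198 and 187 CPM, Socs1 at 350 and 337 CPM, Cish at 214 and 182 CPM, and Socs2 at 142 and 227 CPM. Foxp3 had a ratio of 1.06 (0.871 to 1.28) and ICRE 1.0 (0.732 to 1.35).

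The genes furthest apart between tissues were so in other barcodes too. Cxcr3, the receptor for interferon-induced chemokines, was at 77.8 CPM in lymph node and 13.7 CPM in spleen members, a ratio of 5.66 (3.75 to 8.73), beside 3.61 in the other barcodes. Dtx1 had 4.11 beside 2.95, Art2b 3.91 beside 3.41, and Gpr183, the oxysterol receptor that guides cells to follicle borders, 2.76 beside 1.68. Igfbp4, an insulin-like growth factor binding protein gene, was at 28.9 and 177 CPM, 6.10-fold higher in spleen members and 3.86-fold in the others. Capg, an actin-capping protein gene of the identity list, was at 261 and 557 CPM, 2.13-fold higher in spleen members and 1.91-fold in the others. Interferon-response genes were lower in lymph node members in 15 of 17 measured.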

How the data were processed

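The authors deposited UMI counts for 31056 genes in each barcode. The submitters' processing notes name Cell Ranger 3.0.1 and mm10. All deposited barcodes hold 500 UMIs or more. GENCODE M21 (GRCm38) gave the gene positions. The members and gene lists were chosen with earlier results of these data known, and the split by depth, the rule at 1200 UMIs, the set without CD8, NK or innate-like T barcodes, the share of UMIs from 1 barcode and the tissue ratio in other barcodes were added after seeing the data.

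Counts were summed over barcodes with Python 3.11.15, numpy 2.4.6, pandas 2.3.3 and scipy 1.17.1, drawn with matplotlib 3.10.9, and checked on simulated data. Ratios have exact conditional intervals. Genes needed 100 UMIs over both groups. Named genes had at least 50 CPM in 1 group and the same direction in both libraries, and were the 12 on each side of the matched contrast (6 in others) whose interval bound lay farthest from 1, plus up to 4 per list and a fixed set. No doublet caller was run; an alternative left out the highest 6% by UMIs.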

Additional observations from a re-analysis of the deposited data

Results flagged for a closer look

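Lymph node and spleen ratios lay past 1.5-fold in opposite directions for 5 genes, and none of these differences was tested. Genes outside the rule measured in both libraries numbered 2556 against matched barcodes and 4298 against effector-type barcodes. Between members with and without a feedback gene they numbered 1388. Irf8, a transcription factor of B and myeloid cells, had a ratio of 0.569 in lymph node and 1.73 in spleen between members and matched barcodes, with 40.6% and 13.0% of its member UMIs in 1 barcode. Fam111a had 0.475 and 1.61 in the same comparison. Terf2ip, a telomere protein gene, had 1.79 and 0.643 between members and effector-type barcodes. Between members with and without a Socs1, Socs2 or Cish UMI, the mitochondrial chaperone gene Hspd1 had 2.38 and 0.659, and the stress-response gene Ppp1r15a had 2.79 and 0.644.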

How the results depend on the processing

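No paired analysis was possible because the labels give 1 library per tissue and no replicate number. Of the values for single genes and lists, 722 planned and 67 added recomputations moved by no more than their counting interval, 91 and 1 moved further, and 3 values that had been past 1.5-fold changed direction: with barcodes thinned to 1200 UMIs before the rule and then matched, the log2 ratio was 0.36 (lymph node) and 1.13 (spleen) for Nkg7, and -0.56 (spleen) for Foxp3. Against all other barcodes at 1200 UMIs, Nkg7 in lymph node was still lower, at a ratio of 0.546 (0.248 to 1.05). Values that had not been past 1.5-fold also changed sign under some of the 13 alternatives. They were Ccr7, Cd74, Cotl1 and Il2rg in lymph node, Il2rg in spleen, and the ribosomal list median in both. Over 13 alternatives the log2 ratio of Bcl2 ranged from 0.74 to 1.19 in lymph node and 0.43 to 0.92 in spleen, Rgs1 from 1.0 to 1.39 and 0.86 to 1.51, Lta from 1.70 to 2.22 and 1.17 to 1.94, and Myc from 0.51 to 1.72 and 0.64 to 1.20.

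The member share was 14.2% in lymph node and 18.8% in spleen at 2 or more summed UMIs, 5% and 8.21% at 4 or more, 9.14% and 15.2% among barcodes with 800 or more genes, and 3.39% and 4.99% after thinning. The ICRE share in members was 20.7% and 25.6% with 800 or more genes, 60% and 64.1% after thinning, and 35.5% in spleen without the highest 6% by UMIs. Genes past 1.5-fold against matched barcodes numbered 49 higher and 24 lower in lymph node, and 85 and 41 in spleen. Lower genes in lymph node were 45 at 2 or more summed UMIs. After thinning they were 14 higher and 7 lower in lymph node and 33 and 12 in spleen, and fewer UMIs left fewer genes to measure. Without matching, 203 were higher and 364 lower in lymph node and 198 lower in spleen; with each barcode of equal weight 81 were higher in lymph node. With 30 or more UMIs per gene there were 367 and 317 in lymph node and 333 and 329 in spleen, since more genes enter.

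Between Foxp3- or ICRE-detected barcodes, 11 genes were higher and 18 lower in lymph node and 40 and 36 in spleen; unmatched, 61 and 192 in lymph node and 85 lower in spleen. Against effector-type barcodes the main counts were 205 and 674 in lymph node and 285 higher in spleen, and matching on UMIs gave 78, 333 and 172. Matching between ICRE-detected and Foxp3-only members gave 10 and 10 in place of 72 and 50 (lymph node) and 19 and 7 in place of 144 and 60 (spleen). Matching between members with and without a feedback gene gave 5 and 2 in place of 134 and 49, and 12 and 11 in place of 204 and 108. Matched members were higher in spleen than in lymph node for 43 genes in place of 76. Apart from what is stated, the cause was not tested. Depth limits what a missing UMI shows: a median member holds about 2204.5 to 2339 UMIs, so a cell without a UMI may still express the gene.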
